A study of Mus musculus with 2 samples.

Results

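The genes described here encode the enzymes of the urea cycle and of amino acid breakdown, 46 in all, chosen by name. Of these, 42 were read by a probe set that names the gene alone, 40 of them at or above a minimum signal of 80.04 on at least 1 array, out of 5911 genes that reached it and 12393 on the array. Ass1, the argininosuccinate synthetase gene, was named only by a probe set that also names Gm5424, and 3 genes (Gls2, Sds and Amt) were named by no probe set, so these 4 are not analysed here. Kynu and Mccc2 lay under the minimum on both arrays. The annotation lists Mut, the methylmalonyl-CoA mutase gene, under its newer symbol Mmut.

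Amino acids that the liver does not use for protein synthesis are broken down in hepatocytes. Their nitrogen is collected as ammonia, glutamate and aspartate and leaves as urea, and their carbon skeletons enter glucose, ketone body or one-carbon metabolism. The enzymes are abundant in hepatocytes, and several are known to respond to dietary protein, glucagon, glucocorticoids and fasting. Nitrogen handling is also zoned along the liver lobule. The urea cycle is known for the periportal side, and glutamine synthetase for the cells around the central vein.

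The measurements are liver RNA profiles on 1-colour Affymetrix arrays, with 1 array for each of 2 diets. Both groups are described as female mice, 2 months old, homozygous for a disrupted apolipoprotein E gene on a C57BL/6J background. The olive oil group ate chow with 10% (w/w) olive oil, and the other group ate that chow with the same share of maslinic acid-enriched olive oil. Maslinic acid is a triterpene of olive fruit, and both diets lasted 4 weeks. The design text gives 6 mice per group. The labels do not say whether an array held RNA of 1 mouse or of a pool. The comparison asks how these genes differ when the oil carries maslinic acid. With 1 array per diet there is no replicate check, no difference below was tested, and each is a difference between 2 arrays.

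The array labelled maslinic acid goes against its label at the targeted gene. For Apoe, read by 1 probe set, the signal was 407.7 with olive oil and 7630 with maslinic acid, 18.7-fold higher, although both groups are labelled as knockouts. No array can be left out, so every direction below is between the arrays as labelled. A difference between the diets cannot be told apart from a difference in Apoe genotype or in sample identity. Wording such as lower with maslinic acid names the array by its label only. Signals are on the authors' linear scale, in arbitrary units, and signals under a floor of 40.02 were raised to it before ratios were taken. A pair of signals is given with the array labelled olive oil first. Each log2 ratio divides the maslinic acid signal by the olive oil signal, so a negative value means a lower signal with maslinic acid. The only repeat measurement is a further probe set of the same gene on the same array. Between measured probe sets of 1 gene the log2 ratio had an SD of 0.23, or 0.19 where the mean signal was at least 400. This SD leaves out variation between mice, RNA samples and arrays that the probe sets of a gene share.

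The genes of the urea cycle and of amino acid breakdown differed little between the arrays. Of the 40 measured genes, 28 had a log2 ratio under 0, which is 70.0%, against 52.0% of all measured genes, and the median was -0.08 against -0.01 over all measured genes. The range ran from -0.62 for Uroc1, a histidine breakdown enzyme, to 0.23 for Prodh, which starts proline breakdown. At least 1.2-fold lower were 3 genes (Uroc1, Ivd and Got1), against 9.52% of all measured genes. None of the 40 was at least 1.2-fold higher, against 9.47%. Ivd counts as lower by its brightest probe set, while its other probe set gave a log2 ratio of 0.05. At least 1.5-fold lower was 1 gene, Uroc1, against 1.57% of all genes, and 0 were at least 1.5-fold higher, against 1.47%. All 40 genes had a mean signal of at least 400, as did 2070 of all measured genes. Among those 2070 genes, 55.8% were lower, 5.51% were at least 1.2-fold lower, 4.69% at least 1.2-fold higher, 0.531% at least 1.5-fold lower and 0.821% at least 1.5-fold higher. The shares of the 40 genes were 7.5% at 1.2-fold lower, which rests on 3 genes, and 2.5% at 1.5-fold lower, which rests on Uroc1 alone. The plot of log2 ratios by pathway shows the genes packed near 0 with Uroc1 apart.

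**Figure D1:**
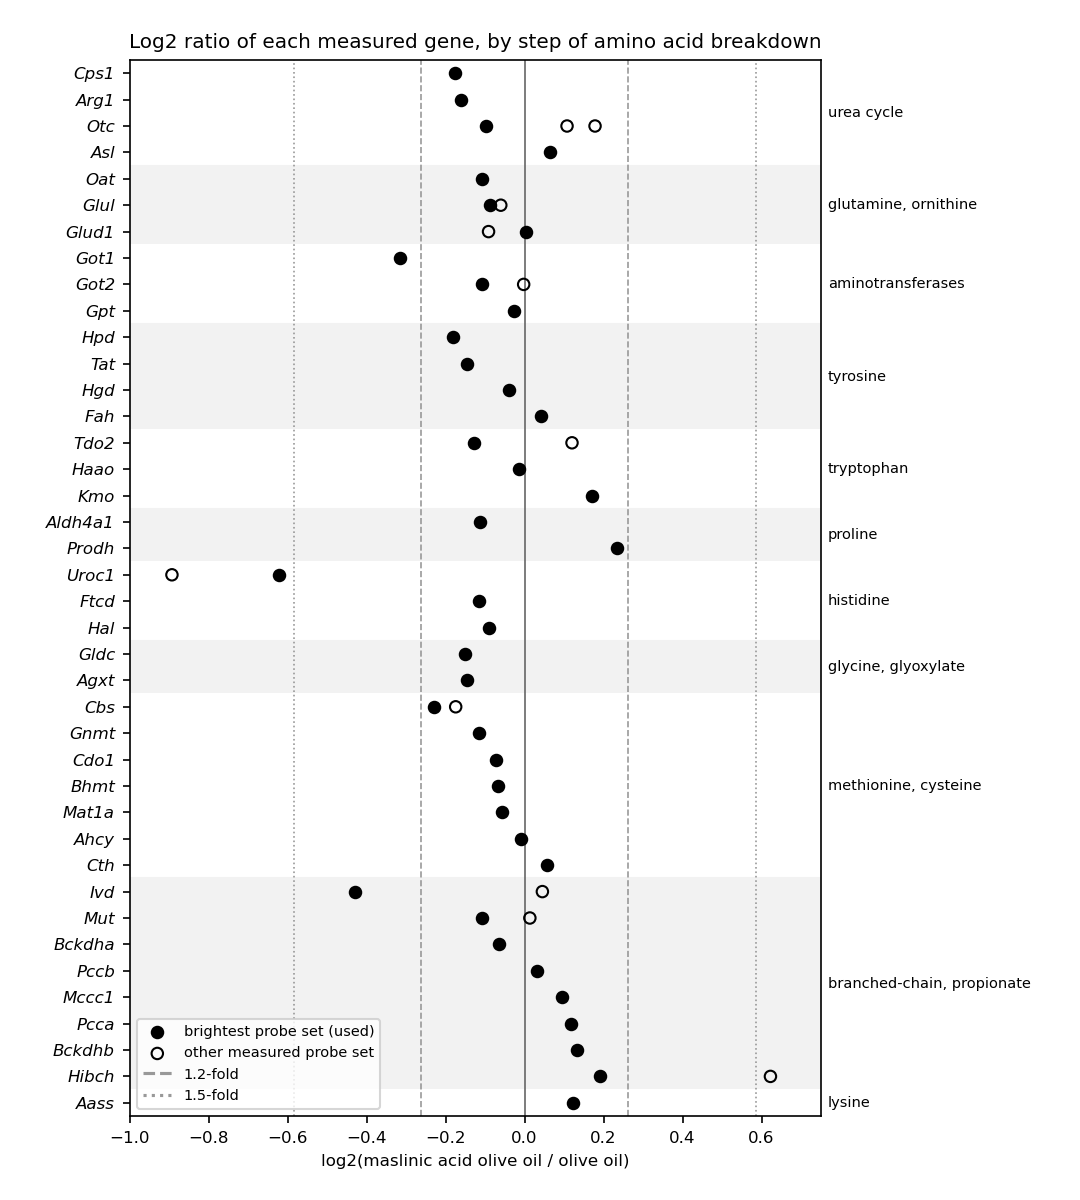
Log2 ratio of signal, maslinic acid olive oil over olive oil, for the 40 measured genes in groups by pathway. Filled points are the brightest probe set of a gene, open points its other measured probe sets, and dashed and dotted lines mark 1.2-fold and 1.5-fold. Both Uroc1 points, at -0.62 and -0.89, lie left of the 1.5-fold line, and no filled point reaches 1.2-fold on the right.

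These genes are read by bright probe sets, and most of the brightest genes were lower with maslinic acid. The median mean signal was 2490 for the 40 genes and 253.8 for all measured genes. Among genes with a mean signal of at least 1600, 21 of 26 genes of these pathways were lower, with a median log2 ratio of -0.09, against 67.4% of all 628 genes of that signal, with a median of -0.05. At a mean signal of 400 to 1600, 7 of 14 were lower, with a median of 0.0025, against 50.8% of 1442 genes. When the log2 ratio's trend on signal was removed by loess, 23 of the 40 genes were lower (57.5%), with a median of -0.03. With quantile normalization 24 were (60.0%), with a median of -0.03. Over all measured genes these scalings gave 51.1% lower (median -0.0053) and 51.7% lower (median -0.008). At a mean signal of at least 1600, 61.5% of the genes of these pathways were lower with the trend removed, against 53.5% of all. With quantile normalization the shares were 69.2% and 54.1%. The share of lower values among the 40 genes thus shrank under both scalings, while Uroc1 stayed at -0.62 with the trend removed. The plot of log2 ratio against signal places the genes among all others.

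**Figure D2:**
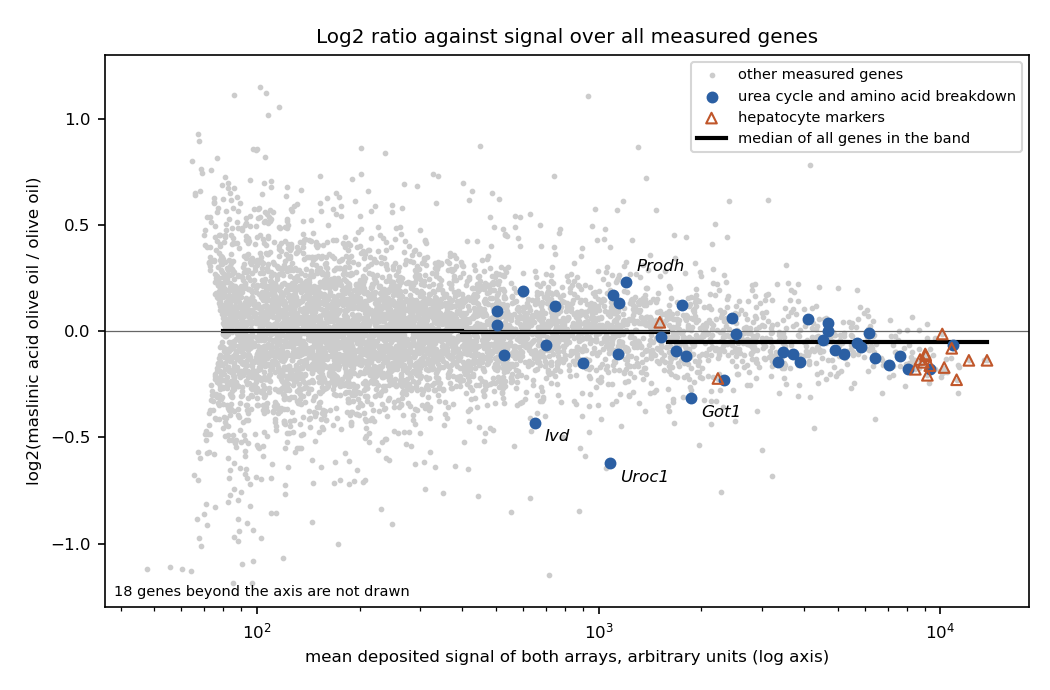
Log2 ratio (maslinic acid olive oil over olive oil) against the mean signal of both arrays on a log axis, for all measured genes (grey), the 40 genes of these pathways (blue) and the hepatocyte markers (triangles). Black lines are the medians of all genes in 3 bands of signal, and 18 genes beyond the axis are not drawn. The brightest band has a median of -0.05. By their brightest probe sets, Uroc1, Ivd and Got1 lie under most genes of their signal.

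Histidine breakdown held the gene furthest from 0. Histidase, encoded by Hal, turns histidine into urocanate, urocanase (Uroc1) acts on urocanate, and the bifunctional enzyme of Ftcd passes the resulting formimino group to folate. Uroc1 read 1308 with olive oil and 849.4 with maslinic acid, a log2 ratio of -0.62 and 1.54-fold lower. Its other probe set read 342.2 and 184.3, a log2 ratio of -0.89 and 1.86-fold lower. Both probe sets of Uroc1 were thus lower with maslinic acid by more than the SD between probe sets. They were read on the same arrays, so they give no measure of variation between mice or arrays. The brighter one is of the type ending in _s_at, which can read several transcripts, and the dimmer one is not. Among the 1814 genes with several measured probe sets, 2 had all of them at least 1.5-fold lower, Uroc1 and Sdc4, which encodes the proteoglycan syndecan 4 and is named after its values were seen. In the other direction there were 5.

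The neighbouring steps were close to 0. Hal read 1737 and 1630, a log2 ratio of -0.09, and Ftcd read 1872 and 1727, a log2 ratio of -0.12. Amdhd1, which encodes the imidazolonepropionase between Uroc1 and Ftcd and comes from the wider list of pathway enzymes, read 1787 and 1737, a log2 ratio of -0.04. All 4 enzymes of the pathway were thus below 0, and Uroc1 was the 1 past 1.2-fold. Hal, Ftcd and Amdhd1 each had a mean signal of at least 1600, where 67.4% of all measured genes were lower. The median log2 ratio of all genes of that signal was -0.05. Amdhd1 was named after its values were seen. Of all 5911 measured genes, 81 (1.37%) lay as low as Uroc1 or lower. Of the 2070 genes with a mean signal of at least 400, 10 did.

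The 250 bases before the gene starts of Hal, Uroc1 and Ftcd are shown because these enzymes act in sequence and 1 of them differed most, with Prodh, the highest gene, for comparison. They come from RefSeq on GRCm38.p6 and are written 5′ to 3′ on the gene's strand. Hal lies at chr10:93488518-93488767 on the plus strand, Uroc1 at chr6:90333039-90333288 on the plus strand, Ftcd at chr10:76575398-76575647 on the plus strand and Prodh at chr16:18089191-18089440 on the minus strand. Capitals mark matches, on either strand, to TATAAA (the TATA box), CCAAT (the CCAAT box), to TGACG (the core of cAMP response elements), TTGCNNAA (a C/EBP site), GTTAAT (part of HNF1 sites) and CAAAG (part of HNF4 sites).
Hal: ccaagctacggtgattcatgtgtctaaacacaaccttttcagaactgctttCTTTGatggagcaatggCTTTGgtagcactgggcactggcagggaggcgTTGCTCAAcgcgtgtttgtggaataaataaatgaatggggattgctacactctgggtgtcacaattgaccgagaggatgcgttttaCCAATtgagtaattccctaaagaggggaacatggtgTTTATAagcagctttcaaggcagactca
Uroc1: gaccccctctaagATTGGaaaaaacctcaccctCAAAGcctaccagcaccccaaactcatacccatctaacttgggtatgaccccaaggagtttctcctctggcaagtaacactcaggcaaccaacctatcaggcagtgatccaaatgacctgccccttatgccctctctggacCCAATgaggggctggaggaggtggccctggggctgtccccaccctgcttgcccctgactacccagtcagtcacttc
Ftcd: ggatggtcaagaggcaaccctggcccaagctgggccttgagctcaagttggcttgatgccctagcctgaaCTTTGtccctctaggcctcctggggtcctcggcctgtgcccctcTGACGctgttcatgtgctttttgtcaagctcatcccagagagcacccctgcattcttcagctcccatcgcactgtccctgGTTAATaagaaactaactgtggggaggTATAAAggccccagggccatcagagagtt
Prodh: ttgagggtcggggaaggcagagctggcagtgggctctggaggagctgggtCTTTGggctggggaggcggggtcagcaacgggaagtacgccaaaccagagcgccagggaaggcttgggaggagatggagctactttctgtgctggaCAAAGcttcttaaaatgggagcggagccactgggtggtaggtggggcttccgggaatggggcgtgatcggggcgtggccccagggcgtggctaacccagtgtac

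Hal and Ftcd each held 1 TATA box match, starting 28 and 29 bases before the gene start, while the windows of Uroc1 and Prodh held 0. Uroc1 held 2 CCAAT box matches, at 237 and 76 bases, and Hal held 1, at 64 bases. Of these 4 windows, Hal held the C/EBP letters, at 150 bases, and Ftcd the cAMP response element core, at 136 bases, and the HNF1 letters, at 56 bases. All 4 windows held the HNF4 letters. Of all 32841 promoter windows of this length in the table, 12.4% held the TATA box, 33.9% the CCAAT box, 17.8% the cAMP response element core, 9.57% the C/EBP letters, 6.43% the HNF1 letters and 48.6% the HNF4 letters. The table held 37 windows for 35 of the 46 genes. Of these, 13.5% held the TATA box, 59.5% the CCAAT box, 8.11% the cAMP response element core, 8.11% the C/EBP letters, 10.8% the HNF1 letters and 48.6% the HNF4 letters. The motifs were chosen after the array values were seen, and a match describes letters only.

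In the urea cycle itself, 3 of 4 measured enzymes were slightly lower with maslinic acid. Their median log2 ratio was -0.13, or -0.07 with the trend on signal removed. Cps1, the mitochondrial carbamoyl phosphate synthetase that admits ammonia to the cycle, read 8549 and 7568, a log2 ratio of -0.18. Arg1, the arginase that releases urea, read 7473 and 6686, a log2 ratio of -0.16. Both differed by less than the SD between probe sets of 1 gene. Asl, the argininosuccinate lyase gene, was the member above 0, at 2409 and 2517, a log2 ratio of 0.06. Otc, the ornithine transcarbamylase gene, read 3586 and 3352 with its brightest probe set, a log2 ratio of -0.10. Its other probe sets gave 0.11 (3130 and 3373) and 0.18 (107.9 and 122.1), so the direction for Otc depends on the probe set.

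The enzymes around the cycle, which handle glutamine, glutamate and ornithine, lay near 0. Oat, the ornithine aminotransferase gene, read 5428 and 5040, a log2 ratio of -0.11. Glul, which encodes the pericentral glutamine synthetase, read 5072 and 4777, a log2 ratio of -0.09, and its other probe set gave -0.06. Glud1, the glutamate dehydrogenase gene, read 4694 and 4704, a log2 ratio of 0.0031, and its other probe set gave -0.09. None of the 3 differed by more than the SD between probe sets.

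The aminotransferases that move amino groups to and from glutamate were lower in 3 of 3 measured genes, and in 2 of 3 with quantile normalization. Got1, which encodes the cytosolic aspartate aminotransferase, read 2068 and 1661, a log2 ratio of -0.32 and 1.25-fold lower. Got1 is read by 1 probe set. Got2, which encodes the mitochondrial enzyme, read 3850 and 3574, a log2 ratio of -0.11, and 674.7 and 673.6 with its other probe set. Gpt, the cytosolic alanine aminotransferase gene, read 1534 and 1506, a log2 ratio of -0.03. In contrast Gpt2, its mitochondrial counterpart and 1 of the wider list, read 1812 and 2572, 1.42-fold higher, and its 3 measured probe sets gave log2 ratios of 0.34 to 0.51. All probe sets of Gpt2 were thus higher with maslinic acid.

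**Figure D3:**
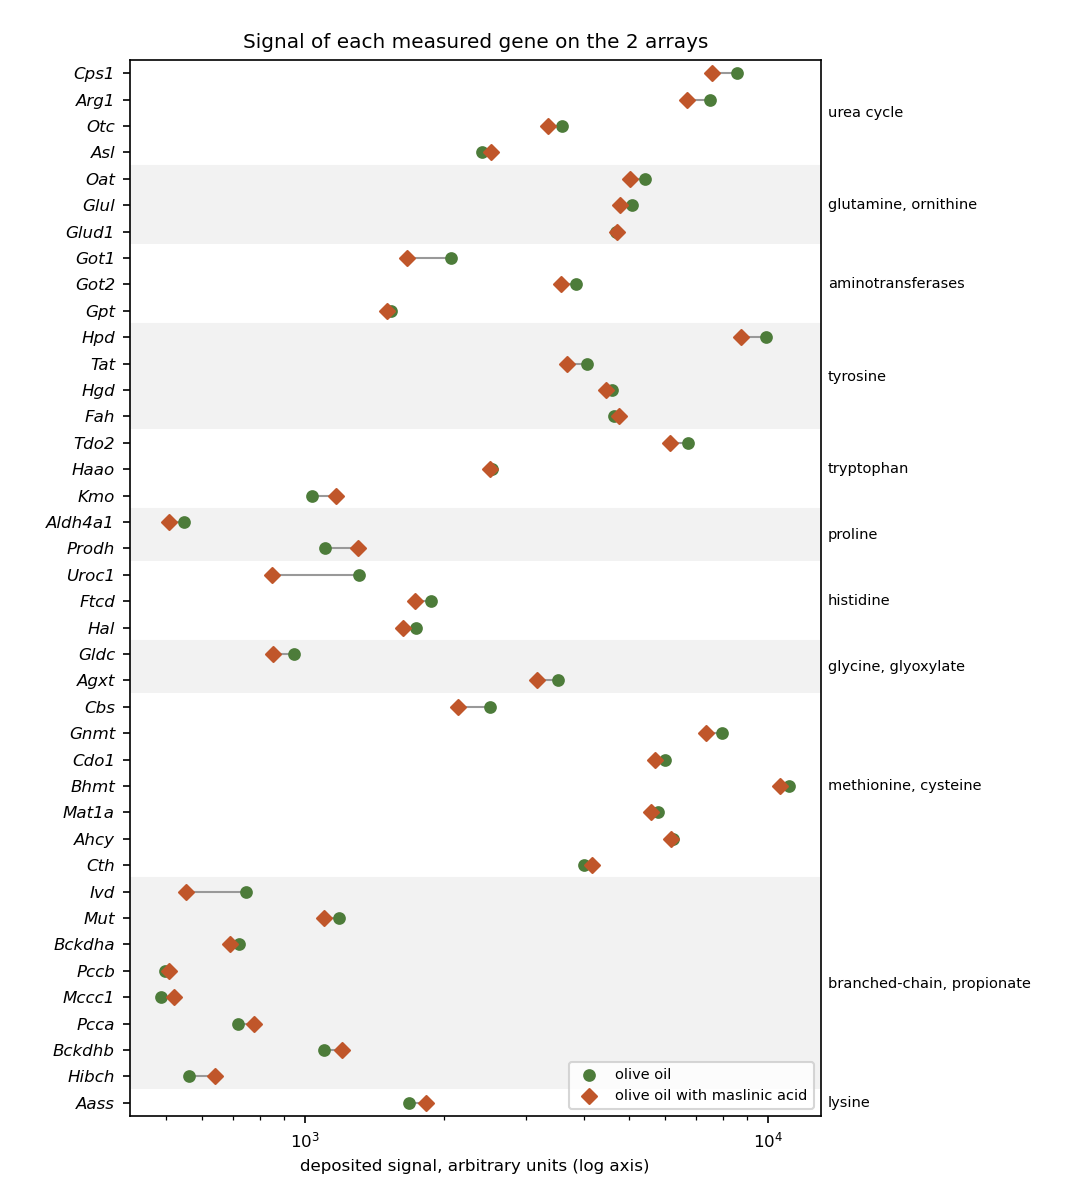
Deposited signal (arbitrary units, log axis) of the 40 measured genes with olive oil (circles) and with maslinic acid (diamonds), in groups by pathway. For most genes the points nearly touch. Uroc1, at 1308 and 849.4, Got1 and Ivd show the widest gaps to the left. Each gene is drawn by its brightest probe set, and the other probe set of Ivd is not drawn.

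Tyrosine breakdown had 3 of 4 genes lower, and 2 of 4 with quantile normalization or with the trend on signal removed. Tat, the tyrosine aminotransferase gene and a classical glucocorticoid target, read 4068 and 3680, a log2 ratio of -0.14, and Hpd, which encodes the next enzyme, read 9893 and 8732, a log2 ratio of -0.18. Hgd, the homogentisate dioxygenase gene, lay at -0.04 and Fah, the gene of the last enzyme, at 0.04. With the trend removed Tat and Hpd both lay at -0.10, Fah lay at 0.10 and Hgd turned to 0.02. With quantile normalization Hpd lay at -0.04, and the median of the group went from -0.09 to -0.01. All 4 lay within the SD between probe sets of 1 gene.

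In tryptophan breakdown along the kynurenine route, Tdo2, whose product opens the ring of tryptophan, read 6719 and 6151, a log2 ratio of -0.13, while its other probe set read 1763 and 1916, a log2 ratio of 0.12. The direction for Tdo2 depends on the probe set. Kmo, the kynurenine monooxygenase gene, was among the highest of the 40 genes, with signals of 1035 and 1165 and a log2 ratio of 0.17. Haao, which acts later, read 2528 and 2504, a log2 ratio of -0.01, which turned to 0.02 with the trend removed. Kynu, the kynureninase gene, was read by 1 probe set at 15.6 and 13.7, under the floor on both arrays.

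The proline enzymes differed in sign. Prodh, the proline dehydrogenase gene, read 1104 and 1298, a log2 ratio of 0.23 and 1.18-fold higher, and was the highest of the 40 genes. Aldh4a1, which encodes the next enzyme, read 549.1 and 507.6, a log2 ratio of -0.11. Each is read by 1 probe set, so neither has a repeat measurement. The glycine and glyoxylate enzymes were both slightly lower. Agxt, which encodes the aminotransferase that removes glyoxylate, read 3510 and 3172, a log2 ratio of -0.15, and Gldc, the decarboxylase of the glycine cleavage system, read 948.0 and 853.3, a log2 ratio of -0.15.

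Methionine and cysteine metabolism was lower in 6 of 7 measured genes, with a median log2 ratio of -0.07. All 7 had a mean signal of at least 1600, where 67.4% of all measured genes were lower. With the trend on signal removed 3 of the 7 were lower and their median turned to 0.0081. With quantile normalization 4 of the 7 were lower. Cbs, the cystathionine beta-synthase gene that commits homocysteine to cysteine, was the lowest, at 2509 and 2141, a log2 ratio of -0.23. Its other probe set read 956.5 and 847.6, a log2 ratio of -0.17, so both probe sets were lower. Cth, which encodes the next enzyme of that route, read 4008 and 4167, a log2 ratio of 0.06. Gnmt, the methyltransferase that uses up S-adenosylmethionine, lay at -0.11, the cysteine dioxygenase gene Cdo1 at -0.07, the betaine-homocysteine methyltransferase gene Bhmt at -0.07, Mat1a, the liver gene for S-adenosylmethionine synthesis, at -0.06 and the S-adenosylhomocysteine hydrolase gene Ahcy at -0.01. With the trend removed Bhmt, Mat1a and Ahcy turned to between 0.0081 and 0.06.

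Breakdown of the branched-chain amino acids and of propionate was the group with most values above 0, with 5 of 8 measured genes higher. The median was 0.06, and the count was the same with quantile normalization and with the trend removed. All 8 had a mean signal of 400 to 1600, where 50.8% of all 1442 genes were lower. Hibch, which acts in valine breakdown, read 560.9 and 640.6, a log2 ratio of 0.19, and its dim second probe set read 70.8 and 109.0, a log2 ratio of 0.62. Bckdhb, a subunit of the branched-chain ketoacid dehydrogenase, read 1098 and 1204, a log2 ratio of 0.13, whereas Bckdha, its partner subunit, read 718.8 and 687.0, a log2 ratio of -0.07. The propionyl-CoA carboxylase subunits Pcca and Pccb lay at 0.12 (715.0 and 776.0) and 0.03 (498.8 and 509.7), and Mccc1, of the leucine pathway, at 0.09. Mccc2, which encodes the partner of Mccc1, read 54.7 and 57.3, under the minimum.

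Ivd, the isovaleryl-CoA dehydrogenase gene of leucine breakdown, went the other way with 1 of its probe sets. It read 746.0 and 553.6, a log2 ratio of -0.43 and 1.35-fold lower, while its other probe set read 440.8 and 454.8, a log2 ratio of 0.05. The probe sets of Ivd lie further apart than the SD between probe sets of 1 gene, so no direction is given for it. Mut read 1184 and 1099, a log2 ratio of -0.11, and 783.1 and 790.4 with its other measured probe set, a log2 ratio of 0.01. Lysine breakdown was represented by Aass, which encodes the enzyme of its first steps and read 1677 and 1827, a log2 ratio of 0.12. Of the 10 genes with several measured probe sets, 5 had all of them on 1 side of 0 and 5 (Otc, Glud1, Tdo2, Ivd and Mut) did not, against 48.1% on 1 side over all such genes.

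Other enzymes of these pathways, from a list of 84 genes of which 49 were measured, were spread around 0, with 23 lower, 26 higher and a median log2 ratio of 0.0055 (-0.0010 with equal medians). At least 1.2-fold higher were 3 of the 49, against 9.47% of all measured genes: Gpt2, Odc1, the ornithine decarboxylase gene of polyamine synthesis, and Dmgdh, the dimethylglycine dehydrogenase gene that follows Bhmt in choline breakdown. Odc1 read 642.4 and 897.2, a log2 ratio of 0.48. The 3 probe sets of Odc1 spanned -0.16 to 0.60, so they differ in sign. Dmgdh read 1623 and 1965, a log2 ratio of 0.28. At least 1.2-fold lower were 2, against 9.52% of all measured genes: Gclc and Gclm, which encode both subunits of the enzyme that starts glutathione synthesis and lay at -0.26 each, although the other probe set of Gclc gave -0.04. Qdpr, which regenerates the cofactor of phenylalanine hydroxylase, also lay at -0.26, and at -0.05 with its other probe set. The ornithine carrier gene Slc25a15 lay at -0.07 and Nags, whose product makes the activator of Cps1, at -0.01, both named after their values were seen.

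Amino acid transporters were also level. Of 11 measured genes, 6 were lower and 5 higher, with a median of -0.03. By the brightest probe set they ranged from -0.15 for Slc6a12 to 0.15 for Slc6a6. Slc7a2 lay at -0.12, and at -0.52 with its other measured probe set. The hepatic regulators had a median of -0.13 over 13 measured genes, with 7 lower and 6 higher. At least 1.2-fold lower were 4 (9.52% over all measured genes) and at least 1.2-fold higher 0 (9.47%). Klf15, a transcription factor known to regulate amino acid breakdown in mouse liver, read 734.1 and 530.8, a log2 ratio of -0.47, on 1 probe set. Ppara, the lipid-sensing nuclear receptor, read 1541 and 1187, a log2 ratio of -0.38, and Cebpb read 1254 and 998.3, a log2 ratio of -0.33, with its other probe set at -0.23. The 4 probe sets of Ppargc1a, a coactivator of the fasting response, spanned -0.28 to 0.30, and the brightest gave -0.28. Hnf4a lay at -0.22, with 3 probe sets from -0.22 to 0.64, and Atf4, the amino acid stress regulator, at 0.20 on both of its probe sets.

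Periportal and pericentral genes were both mostly lower, and the difference between the lists was not tested. Periportal genes were lower in 7 of 10 measured genes, with a median of -0.10, and pericentral genes in 9 of 11, with a median of -0.11. The share was 52.0% over all measured genes and 67.4% over those with a mean signal of at least 1600. With quantile normalization or with the trend on signal removed, 6 of 10 periportal and 8 of 11 pericentral genes were lower. At least 1.2-fold lower were 0 periportal and 3 pericentral genes, against 9.52% of all measured genes. At least 1.2-fold higher were 1 periportal and 0 pericentral genes, against 9.47%. Cps1, Arg1, Asl and Hal belong to the former and Glul and Oat to the latter list, so the lists are not independent of the genes above. Outside these, Aldh1b1 lay at 0.32 among periportal genes, and Cyp1a2, Lect2 and Cyp2e1 at -0.45, -0.32 and -0.29 among pericentral ones.

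Markers of hepatocytes, the cells that hold these enzymes, were mostly lower too. Of 15 measured hepatocyte markers, 14 were below 0, against 52.0% of all measured genes. At a mean signal of at least 1600 the share of all genes was 67.4%. The hepatocyte markers had a median of -0.14. With the trend on signal removed 12 were lower and the median was -0.05, and with quantile normalization 10 were lower, 4 higher and the median was -0.01. Their summed signal was 140925 with olive oil and 127985 with maslinic acid, and none of the 15 lay under the floor on both arrays. Endothelial markers were lower in 10 of 10 measured genes, with sums of 4164 and 3839. At least 1.2-fold lower were 3 of them (Kdr, Oit3 and Cdh5), against 9.52% of all measured genes. At least 1.2-fold higher were 0, against 9.47%. The other probe set of Eng gave 0.0069. The sums take all markers of a list on the array, measured or not. These were 11 endothelial, 13 Kupffer cell, 12 stellate cell and 12 lymphocyte markers. Kupffer cell markers were lower in 5 of 12, with sums of 12255 and 12247, and they differed among themselves. Marco, a scavenger receptor gene, read 338.1 and 84.6, a log2 ratio of -2.00 and the lowest of all measured genes. C1qb, a complement gene, read 884.8 and 1194, a log2 ratio of 0.43, and its 3 measured probe sets spanned 0.10 to 0.43. Stellate cell markers were lower in 2 of 9, with sums of 5340 and 5402 and Lrat under the floor on both arrays. Lymphocyte markers were lower in 1 of 6, with sums of 3125 and 4355. Ighm, which encodes an immunoglobulin heavy chain, lay at 1.54, with signals of 322.9 and 936.2. Its 3 measured probe sets spanned 0.49 to 1.54. The other 4 higher genes were H2-Aa, H2-Ab1, H2-Eb1 and Cd74, which act in antigen presentation and are not particular to lymphocytes. Ptprc, a general leukocyte gene, lay at -0.14, and Cd3e, Cd3g, Cd79a, Ms4a1 and Nkg7 lay under the floor on both arrays. All 5 cholangiocyte markers on the array lay under the floor on both. In tissue RNA a smaller share of hepatocytes and less RNA of these genes per hepatocyte cannot be told apart. The part of the cell mix in the values above was not tested, nor was the part of the trend on signal.

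**Figure D4:**
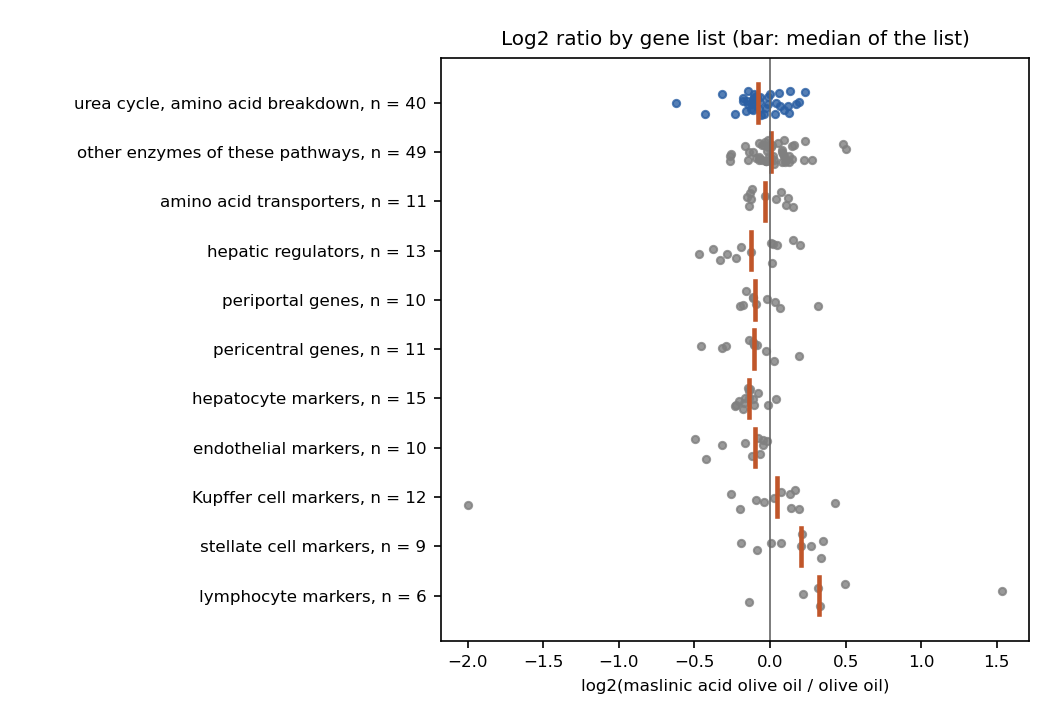
Log2 ratio (maslinic acid olive oil over olive oil) of each measured gene by list, with the median of the list as a bar and small vertical scatter for legibility. The 40 genes of the urea cycle and amino acid breakdown have a median of -0.08, with the other enzymes of these pathways at 0.0055 and the hepatocyte markers at -0.14. With quantile normalization, not drawn, the medians are -0.03, 0.0029 and -0.01, so their order changes. With the trend on signal removed, also not drawn, they are -0.03, 0.02 and -0.05, in the same order as drawn.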

How the data were processed

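Total liver RNA was labelled with biotin as cRNA and hybridised to 1-colour Affymetrix arrays, per the labels' protocols. The deposited table holds linear intensities for each probe set. The submitters' processing notes name MAS5 without a version. The 2% trimmed mean was 200.1 on each array.

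Each array was rescaled to a trimmed mean of 500 and signals under 100 were raised to 100 (40.02 on the deposited scale). A gene was represented by its brightest probe set among those naming it alone, and counted as measured where it reached 200 (80.04 as deposited) on at least 1 array. The 64 control probe sets were left out of the genes but kept in the scaling. Platform annotation named 1 gene for 20393 of 22690 probe sets, several for 691 and none for 1606. Python 3.11.15, pandas 2.3.3 and statsmodels 0.14.6 (loess) were used, and each scaling was tested on simulated data. The simulated arrays differed by a constant factor and held no trend on signal, so removal of such a trend was not tested.

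With 1 array per diet no test was made. Precision is limited by there being 2 arrays. Differences are described by size, at 1.2-fold and 1.5-fold. The members, gene lists, motifs and naming rule (all members; up to 6 genes of each other list by size) were chosen with earlier results of these data known.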

Additional observations from a re-analysis of the deposited data

How the results depend on the processing

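No paired analysis was possible because there is 1 array per diet, and for the same reason no array could be left out. The alternatives were 11 chosen at the start and 2 added after the data were seen (the next brightest probe set, and leaving out Mut). The median log2 ratio of the 40 genes was -0.08. It moved to -0.0322 with quantile normalization and to -0.0329 with the trend on signal removed, and ran from -0.09 to -0.05 under the other alternatives. The number of genes lower ran from 23 to 29 and the number at least 1.2-fold lower from 2 to 3. The number at least 1.2-fold higher was 0, and 1 (Hibch) with the mean of all measured probe sets, without the _x_at and _s_at types, and with the next brightest probe set. Of 479 values of single genes, 472 moved by less than the SD between probe sets and 7 by more, all through the choice of probe set. The sign turned under at least 1 alternative for 10 genes (Glud1, Ahcy, Bhmt, Hgd, Haao, Mat1a, Otc, Ivd, Mut and Tdo2). Uroc1 lay between -0.89 and -0.62 throughout. Signals near the floor limit what can be said of Kynu and Mccc2.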
